A study of Mus musculus with 8 samples.

Results

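Immediate early genes were examined in heart tissue, left ventricle plus septum, from 8 mice. The set comprised 10 genes, Fos, Fosb, Jun, Junb, Egr1, Atf3, Ier2, Dusp1, Myc and Nr4a1, of 18120 gene symbols on the array, taken as every probe that carries one of these symbols. This gave 11 of 25697 probes, with 1 probe for each gene and 2 for Myc. The mice were 4 heterozygotes of a knock-in line and 4 wild-type littermates, all 12 months old and on a Swiss Agouti background. The heterozygotes carry the knock-in allele in 1 copy, and the study's title ties the model to ventricular fibrosis in old age. RNA of each mouse was hybridised to 1 Illumina bead array, a slide on which each transcript is read by a short probe.

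Immediate early genes are switched on within minutes of a stimulus, before any new protein is made. Growth factors, stretch, calcium entry and stress reach them through MAP kinases and calcium-dependent kinases, which act on the DNA-bound factors SRF with its ETS partners and CREB. Their transcripts are short-lived, and in the heart they are known to rise with pressure load, ischaemia and handling of the tissue. Most encode transcription factors. FOS and JUN family proteins pair to form AP-1, and EGR1 is a zinc finger factor. DUSP1 is a phosphatase that switches MAP kinases off again. In bulk tissue, fewer cells that express a gene and less of its RNA per cell cannot be told apart.

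Upstream DNA of 3 members is shown, because Fos and Junb varied together between mice and Dusp1 was the only one of the 7 members searched that held the full CREB site. The sequences are the 250 bases before the start site, on the strand of the gene, from RefSeq (build GRCm38.p6). Capitals mark motif matches. Fos lies at chr12:85473640-85473889 (plus strand), Junb at chr8:84978749-84978998 (minus strand) and Dusp1 at chr17:26508473-26508722 (minus strand).
Fos: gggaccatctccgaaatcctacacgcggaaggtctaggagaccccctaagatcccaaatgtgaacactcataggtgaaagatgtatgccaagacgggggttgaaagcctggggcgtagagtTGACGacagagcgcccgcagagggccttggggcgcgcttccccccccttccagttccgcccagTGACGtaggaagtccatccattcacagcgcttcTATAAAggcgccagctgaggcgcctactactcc
Junb: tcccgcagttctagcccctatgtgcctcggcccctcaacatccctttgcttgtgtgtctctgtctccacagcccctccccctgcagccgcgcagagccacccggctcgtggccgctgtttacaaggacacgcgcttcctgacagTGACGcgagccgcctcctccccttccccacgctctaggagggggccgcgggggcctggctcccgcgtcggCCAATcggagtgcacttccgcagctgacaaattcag
Dusp1: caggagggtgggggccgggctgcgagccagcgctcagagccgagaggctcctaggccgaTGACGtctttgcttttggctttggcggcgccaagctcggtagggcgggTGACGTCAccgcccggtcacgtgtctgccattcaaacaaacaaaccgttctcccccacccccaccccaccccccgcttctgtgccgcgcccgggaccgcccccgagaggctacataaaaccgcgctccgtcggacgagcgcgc
Promoter sequences were matched for 7 of the 10 members, Fos, Fosb, Jun, Junb, Atf3, Dusp1 and Nr4a1. Both strands were searched for the full CREB site TGACGTCA, its core TGACG, the AP-1 site TGANTCA, the EGR site GCGNGGGCG, the TATA box TATAAA, the CCAAT box CCAAT and, by name, the CArG box of SRF. The core lies within the full site on either strand. The core was present in 6 of the 7 members, and in 17.8% of all 32851 windows of this length. In Fos it began 129 and 66 bases before the start site, and TATAAA began 33 bases before it. In Junb the core began 106 and CCAAT 36 bases before the start site. The full site occurred in 1 member, Dusp1, from 143 bases before the start site, against 1.55% of all windows. The EGR site occurred in 2 members (Fosb and Nr4a1) against 4.70% of windows, and CCAAT in 2 (Jun and Junb) against 33.8%. The AP-1 site (6.75% of windows) and the CArG box (1.47%) were in none of the 7 windows. These matches describe the letters in this window only.

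All 8 arrays carried the heart muscle signature. Of 9 cardiomyocyte marker genes with a probe, 8 or 9 were detected on every array. Between 10094 and 11545 probes were detected per array, the most in heterozygote 3, and the median deposited intensity lay between 4.98 and 7.56. Heterozygote 3 had the lowest mean correlation with the other arrays (0.9495, against 0.9713 to 0.9765). It had 6 of 8 lung markers detected, wild type 1 had 3, wild type 4 had 2, heterozygote 4 had 1 and the remaining mice 0. The labels give separate mice as replicates, and no 2 arrays held identical values. The number of arrays, 4 per genotype, limits the precision of every value.

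Of the 11 probes, 6 passed the detection filter, which asks for a detection p-value under 0.01 on at least 4 of the 8 arrays. These were Fos, Jun, Junb, Egr1 and Dusp1, detected on all 8 arrays, and Atf3, detected on 3 heterozygote and 2 wild-type arrays. The probes for Fosb, Ier2, Nr4a1 and both for Myc were detected on 0 of 8 arrays at that threshold. Levels below are given both as deposited intensities, which are linear and background-subtracted, and as log2 intensities after normalization between arrays. A level of 1 probe is not compared with that of another, since probes differ in binding.

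Among the AP-1 genes, Fos varied most between mice. Its deposited intensity was 81.0, 93.6, 108 and 43.7 in heterozygotes 1 to 4 and 70.3, 219, 43.0 and 22.7 in wild types 1 to 4. Wild type 2 was thus the highest and wild type 4 the lowest of all mice, 9.66-fold apart, and the heterozygotes lay between them. On the normalized log2 scale Fos averaged 6.50 ± 0.51 (SD, n = 4) in heterozygotes and 6.46 ± 1.04 (SD, n = 4) in wild types. Its SD over all 8 mice, 0.76, was exceeded by 2.29% of the 10547 probes that passed the filter.

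Jun encodes the main partner of FOS in AP-1. Its deposited intensity was 79.8, 78.9, 81.5 and 95 in heterozygotes 1 to 4 and 60.1, 142, 69.8 and 57.3 in wild types 1 to 4. The heterozygotes lay close together and inside the range of the wild types, whose highest mouse was again wild type 2. Normalized Jun averaged 6.56 ± 0.13 (SD, n = 4) and 6.64 ± 0.37 (SD, n = 4) in the same order, and its SD over 8 mice of 0.26 equalled the median of all probes that passed the filter (0.26). Junb, a JUN relative that is a weaker activator, had deposited intensities of 199, 178, 198 and 190 in heterozygotes and 135, 226, 108 and 59.2 in wild types. All heterozygotes lay above 3 of the 4 wild types and below wild type 2 on this scale. After normalization Junb averaged 7.61 ± 0.12 (SD, n = 4) in heterozygotes and 7.20 ± 0.65 (SD, n = 4) in wild types, and wild type 1, at 7.69, came level with the heterozygotes (7.45 to 7.71).

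Fosb, a FOS relative known for lasting neuronal responses, was close to background. Its deposited intensity ran from 4.48 to 12.0 in heterozygotes and from -2.46 to 7.82 in wild types. The lowest detection p-value was 0.01 in heterozygote 4, just outside the threshold, and 2 of 8 arrays had a detection p-value under 0.05.

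Egr1, which carries signals to growth and matrix genes, was bright on every array. Its deposited intensity was 1342, 1012, 1185 and 1202 in heterozygotes 1 to 4 and 898, 2544, 1014 and 794 in wild types 1 to 4. Wild type 2 stood above all other mice, and on this scale the other 3 wild types overlapped with or lay below the heterozygotes. After normalization wild type 1, at 10.29, lay just above the heterozygotes (9.99 to 10.26). Normalized Egr1 averaged 10.14 ± 0.14 (SD, n = 4) in heterozygotes and 10.31 ± 0.62 (SD, n = 4) in wild types, and the wild-type SD was 0.24 without wild type 2. Atf3, a stress-induced bZIP repressor, had deposited intensities of 9.15, 13.9, 43.0 and 32.0 in heterozygotes and 12.0, 45.2, 10.2 and 10.4 in wild types. It was high in 3 mice, heterozygotes 3 and 4 and wild type 2, and near background in the other 5. Its normalized means were 5.20 ± 0.43 (SD, n = 4) and 5.06 ± 0.50 (SD, n = 4), on a scale whose lowest value was 4.10.

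Dusp1, the MAP kinase phosphatase, varied least in fold terms among the 6 member probes that passed. Its deposited intensity was 1262, 1512, 1177 and 1425 in heterozygotes and 1211, 1966, 1389 and 1101 in wild types, 1.79-fold from lowest to highest. Normalized Dusp1 averaged 10.32 ± 0.20 (SD, n = 4) in heterozygotes and 10.55 ± 0.26 (SD, n = 4) in wild types, with overlap between the genotypes. Of all probes that passed the filter, 56.2% had a larger SD over the 8 mice.

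Ier2, a nuclear protein of the early growth response, ran from -7.99 to 3.26 in deposited intensity, with detection p-values of 0.199 or more. Nr4a1, an orphan nuclear receptor, ran from -6.92 to 3.46 (detection p-values of 0.164 or more). The growth regulator Myc ran from -6.19 to 1.23 on 1 probe and from -3.10 to 6.37 on the other (detection p-values of 0.350 and 0.0551 or more). These probes were not well above background in either genotype, and no fold is given for them. Where each probe lies in its transcript is not known, so a poor probe and a low transcript cannot be told apart here. The same holds for Fosb.

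**Figure D1:**
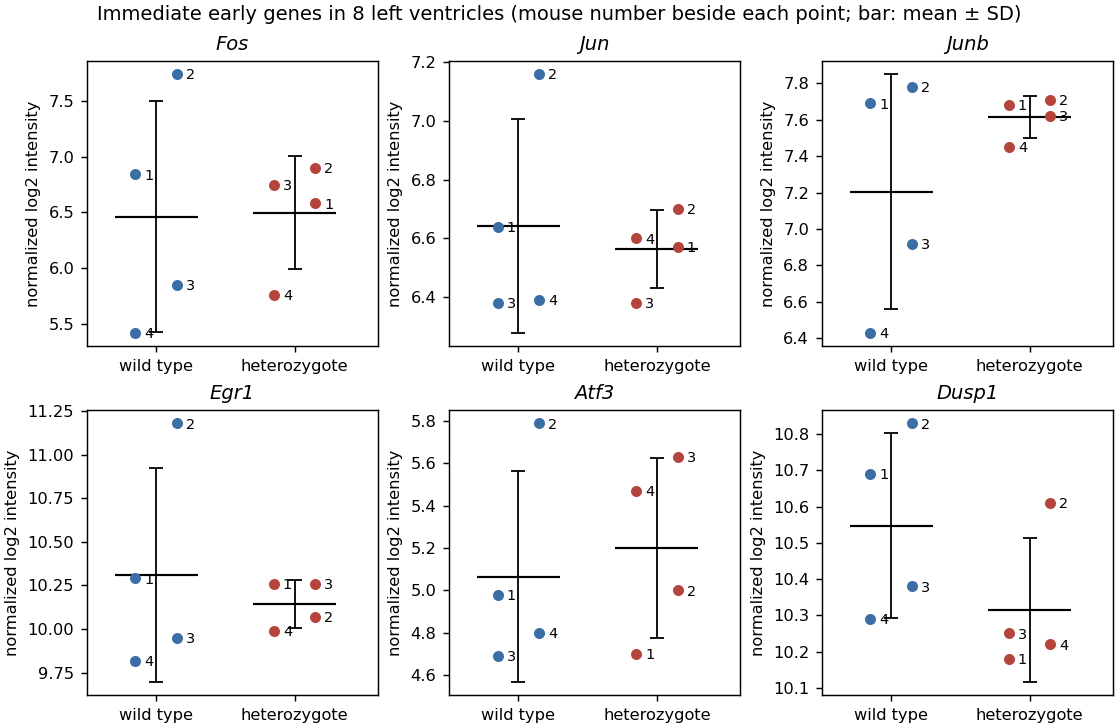
Normalized log2 intensity (vertical axis) of the 6 immediate early genes that passed the detection filter, in 4 wild types and 4 heterozygotes. Points are mice with their numbers, and bars give mean ± SD. Wild type 2 is the highest mouse in all 6 panels, and each axis has its own range.

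Between the genotypes none of the 6 genes that passed the filter differed beyond the spread between mice. Fosb, Ier2, Nr4a1 and Myc, not detected on any array, could not be judged. Each difference is the heterozygote mean less the wild-type mean in normalized log2 units, tested with limma over all 10547 probes with Benjamini-Hochberg adjustment at 0.05. Junb differed by 0.41 (SE 0.28, 95% interval -0.20 to 1.02, adjusted p = 0.946, limma). Dusp1 differed by -0.23 (SE 0.17, 95% interval -0.61 to 0.14), Egr1 by -0.17 (-0.76 to 0.43) and Jun by -0.08 (-0.50 to 0.34). Atf3 differed by 0.14 (-0.47 to 0.75) and Fos by 0.04 (-0.98 to 1.05). Adjusted p-values of the 6 probes lay between 0.946 and 0.998 (limma), and the smallest unadjusted p was 0.169 (limma). The interval of Fos was the widest of the 6, so these arrays bound its change least.

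With limma, 0 of the 6 member probes were called and 0 reached an unadjusted p under 0.05. Over all probes 0 were called (0%, smallest adjusted p 0.946, limma), 494 had an unadjusted p under 0.05 (4.68%) and 281 had genotypes that did not overlap (2.66%). In each of the 6 member probes the genotypes overlapped. Of the 6, 3 differences were positive and 3 negative, with a median of -0.02 beside 0.00 for all probes that passed. Without wild type 2 the differences were 0.60 for Junb, 0.47 for Fos, 0.38 for Atf3, 0.13 for Egr1, 0.09 for Jun and -0.14 for Dusp1, so that Egr1 and Jun changed sign, and none was called. Without wild type 4, the lowest mouse for Fos, Junb and Egr1, Junb was 0.15 and Fos -0.31. Without heterozygote 3, the array that stood apart, Atf3 was -0.005 and Fos -0.05. When the filter was dropped, the 5 probes left out by it differed by -0.04 to 0.15, with adjusted p-values of 0.973 or more (limma).

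**Figure D2:**
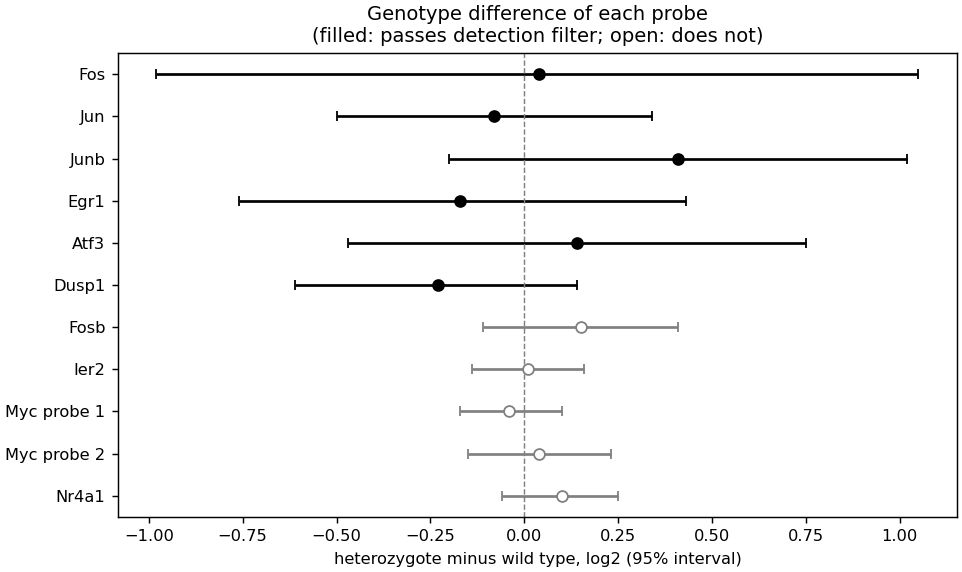
Heterozygote minus wild type difference of each of the 11 probes on the normalized log2 scale (horizontal axis) with its 95% interval. Filled points passed the detection filter and open points are from the fit without that filter. Every interval includes 0, and that of Fos is the widest, from -0.98 to 1.05.

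The members varied together between mice more than probes in general. In all 6 probes that passed the filter, wild type 2 was the highest of the 8 mice, on the deposited intensities, after the main normalization and in all 5 alternatives to it, of which the authors' normalized table was 1. Of all probes that passed, 10.8% were highest in wild type 2. The excess of wild type 2 over the median of the other 7 mice was 1.16 for Fos, 1.11 for Egr1, 0.81 for Atf3, 0.59 for Jun, 0.54 for Dusp1 and 0.17 for Junb, in log2 units. Its median over the members was 0.70, beside -0.01 over all probes. An excess at or above that of Junb was found in 26.1% of all probes that passed. Of the 6 probes, 3 were lowest in wild type 4 (Fos, Junb and Egr1), 2 in wild type 3 and 1 in heterozygote 1. The count for wild type 2 was made after the values were seen, and the members were chosen with earlier results of these data known.

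Pearson correlations across the 8 mice were positive for all 15 pairs of the 6 genes. They ran from 0.290 to 0.872 with a median of 0.639, beside a median of 0.008 over all pairs of probes that passed the filter. Of the 15 pairs 6 exceeded 0.7, and of all probe pairs 5.13% did. The median SD over the 8 mice was 0.43 for members and 0.26 for all probes.

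Fos correlated with Egr1 at r = 0.872 (exact permutation p = 0.00159, two-sided, adjusted over 15 pairs 0.0119), with a Spearman rho of 0.826 (exact permutation p = 0.0163, adjusted 0.0610). Fos correlated with Junb at r = 0.822 (exact permutation p = 0.00114, adjusted 0.0119) and rho = 0.952 (exact permutation p = 0.00114, adjusted 0.0171). These were the 2 pairs called. In both, the mice fell into the same order at the extremes, with wild type 2 at the top and wild type 4 at the bottom. Without these 2 mice, which lie farthest from the median of Fos, r was 0.774 for Fos with Egr1 and 0.788 for Fos with Junb over 6 mice. Without heterozygote 3 r was 0.878 and 0.818, while Jun with Egr1 was at 0.936 and Fos with Jun at 0.888. The count of pairs called was 2 there too, which need not be the same pairs.

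Jun with Egr1 had r = 0.867 (exact permutation p = 0.0256, adjusted 0.0768; rho = 0.599, exact permutation p = 0.124, adjusted 0.227), and fell to 0.221 without wild types 2 and 3. Fos with Jun had r = 0.774 (exact permutation p = 0.0175, adjusted 0.0684; rho = 0.690, exact permutation p = 0.0694, adjusted 0.208) and 0.359 without wild types 2 and 4. Jun with Dusp1 had r = 0.766 (exact permutation p = 0.0182, adjusted 0.0684; rho = 0.548, exact permutation p = 0.171, adjusted 0.227) and 0.607 without wild types 2 and 3. The relations of Jun with Egr1 and with Fos therefore rest on those mice. The weakest pairs were Atf3 with Dusp1 (r = 0.290, exact permutation p = 0.467, adjusted 0.467), Junb with Dusp1 (r = 0.392, exact permutation p = 0.362, adjusted 0.388) and Junb with Atf3 (r = 0.483, exact permutation p = 0.222, adjusted 0.256). Their rho values were 0.286, 0.548 and 0.524 (exact permutation p = 0.501, 0.171 and 0.197, adjusted 0.501, 0.227 and 0.227), and r without the 2 farthest mice was 0.0155, 0.711 and -0.114.

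Without wild type 2 the median r of the 15 pairs was 0.389, beside 0.010 over all probe pairs, and 14 were positive. The pairs called over these 7 mice were Fos with Junb (r = 0.870) and Egr1 with Junb (r = 0.849), each with adjusted p = 0.0461 by exact permutation. Over all 8 mice Egr1 with Junb had r = 0.609 (exact permutation p = 0.118, adjusted 0.188) and was not called. Fos with Egr1 kept r = 0.868 (adjusted p = 0.151, exact permutation). The call count fell to 0 without wild type 1 or without wild type 4, and to 1 without heterozygote 2. With each genotype's mean removed, so that only variation within genotypes counted, r was 0.899 for Fos with Egr1 and 0.909 for Fos with Junb, and the median of the 15 pairs was 0.790. Exact permutation within genotypes then called 0 pairs (smallest adjusted p = 0.115).

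**Figure D3:**
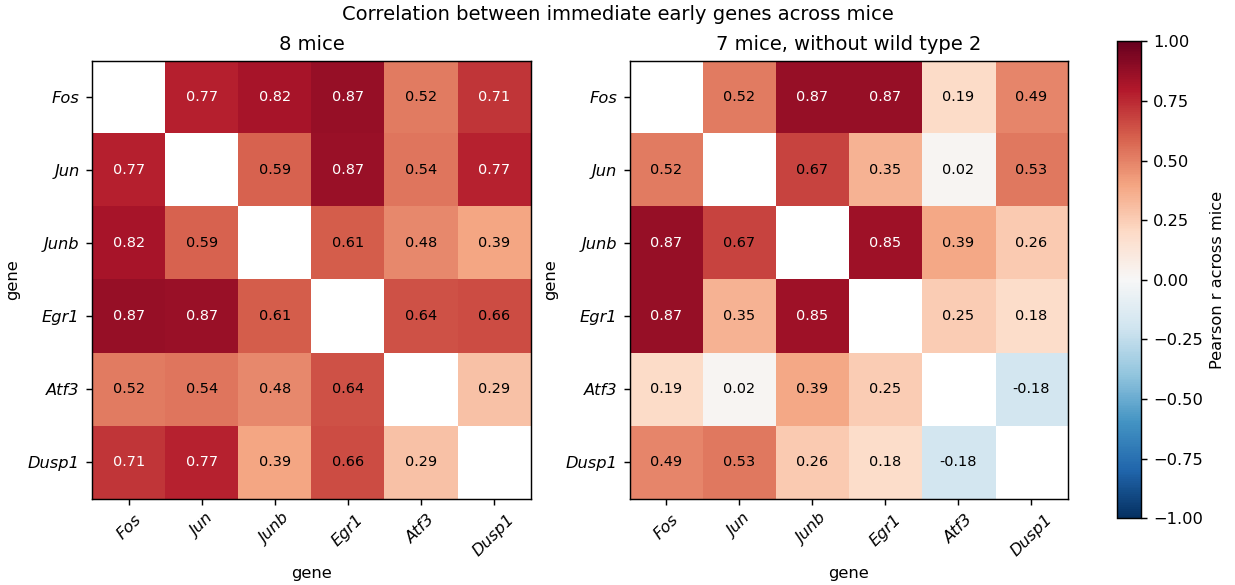
Pearson r between the 6 genes across all 8 mice (left) and across the 7 mice without wild type 2 (right). Each cell is 1 pair of genes, and red is positive. Without wild type 2, Fos stays at 0.868 with Egr1 and 0.870 with Junb, Junb with Egr1 goes from 0.609 to 0.849, and Jun with Egr1 goes from 0.867 to 0.348. The pairs of Atf3 and those of Dusp1 are lower in the right panel.

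Marker lists of other cell types are given beside this pattern, as values with no test. The sums are of deposited intensities, which are not scaled between arrays. For scale, the upstream regulators listed further below summed to 8002 in wild type 2. They summed to 4943 to 7331 in the other wild types and 6939 to 8372 in heterozygotes. Their normalized means were 7.80, 7.79 to 7.85 and 7.79 to 7.93 in the same order. Of 6 smooth muscle markers that passed the filter, 5 were highest in wild type 2. The summed deposited intensity of the 7 markers was 27468 in wild type 2, against 10437 to 14241 in the other wild types and 12480 to 19537 in heterozygotes, with Cnn1 detected on 0 arrays. Epicardial and mesothelial markers (7 genes, 4 passing, 2 of them highest in wild type 2) summed to 1299 in wild type 2, against 164 to 262 in the other wild types and 211 to 1173 in heterozygotes, the highest being heterozygote 3. Endothelial markers (8 genes, 6 passing, 3 highest in wild type 2) summed to 5851, against 3347 to 4267 and 3767 to 4593, with Kdr and Fabp4 detected on 0 arrays. Their normalized mean differed less, at 9.29 in wild type 2, 8.97 to 9.13 in the other wild types and 8.89 to 9.08 in heterozygotes. Atrial markers (6 genes, 5 passing, 1 highest in wild type 2) summed to 56107, against 23314 to 33130 and 22504 to 54820. Bmp10 was detected on 0 arrays. The normalized mean of the atrial markers was higher in heterozygote 3 (11.91) than in wild type 2 (11.77). Erythroid markers (6 genes, 4 passing, 2 highest in wild type 2) summed to 24803, against 14002 to 15165 and 9131 to 23248, with Hemgn detected on 0 arrays. The normalized mean of the erythroid markers was 9.20 in wild type 2, 7.78 to 8.05 in the other wild types and 7.08 to 8.97 in heterozygotes. The part of these cell types in the early gene pattern was not tested. Heterozygote 3, which came close to wild type 2 in epicardial and atrial sums, had normalized levels of 5.63 for Atf3 and 7.62 for Junb, against 5.79 and 7.78 in wild type 2. Its levels of Fos, Egr1, Jun and Dusp1 were 6.75, 10.26, 6.38 and 10.25, against 7.74, 11.18, 7.16 and 10.83. Heat shock genes respond to protein damage. Their mean log2 level was 8.16 in wild type 2, 8.01 to 8.02 in the other wild types and 7.95 to 8.37 in heterozygotes. Of the 7 that passed the filter, 0 were highest in wild type 2.

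**Figure D4:**
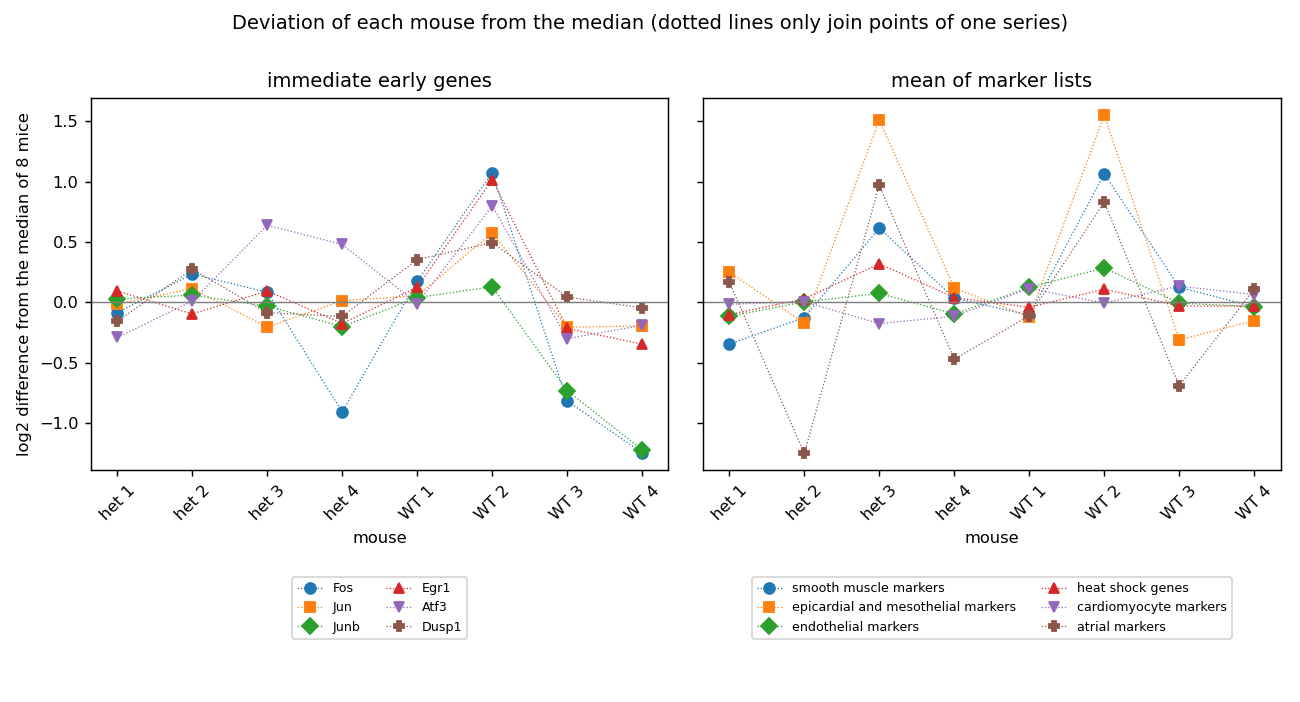
Difference of each mouse from the median of the 8 mice in normalized log2 units (vertical axis), for the 6 immediate early genes (left) and for the mean of 6 gene lists (right), with mice along the horizontal axis. All 6 genes peak in wild type 2, and smooth muscle, epicardial and atrial marker means are high in wild type 2 and in heterozygote 3.

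Other early response transcription factors had mostly positive differences, and none passed the test. Of 21 genes 19 had a probe and 11 passed the filter, of which 8 were higher and 3 lower in heterozygotes with a median difference of 0.25, and 0 were called. Of all probes that passed, 50.1% had a positive difference. The mean log2 level of this list overlapped between genotypes, at 7.32 to 7.57 in heterozygotes and 7.04 to 7.42 in wild types. Heterozygote 3 was the highest mouse and wild type 4 the lowest. Cebpb, a bZIP factor of inflammation and metabolism, differed by 0.60 (SD 0.37 in 4 heterozygotes and 0.30 in 4 wild types, 95% interval 0.12 to 1.08, adjusted p = 0.946, limma). Nfil3, a transcriptional repressor, differed by 0.34, and Bhlhe40, a repressor tied to the clock, by 0.29. Klf4, a zinc finger factor, differed by 0.26, with other probes at -0.03 and 0.33, and Crem, whose inducible form represses CREB targets, differed by 0.25. Fosl1, Egr4, Nr4a3 and Mafk were detected on 0 arrays. Of these 11 genes, 0 were highest in wild type 2, beside 10.8% of all probes that passed. Their excess of wild type 2 over the median of the other 7 mice ran from -0.40 (Klf4) to 0.69 (Egr2, a dim probe). That of Egr2 was above the excess of the members Jun, Dusp1 and Junb. Egr2 was highest in heterozygote 3, as were 19.0% of all probes that passed.

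Signalling and RNA-decay genes of the early response gave 27 of 38 measurable genes after the filter, with 21 higher, 6 lower and 0 called, and a median difference of 0.09. The share of positive differences over all probes was 50.1%. The mean log2 level of the list was 7.86 to 7.90 in heterozygotes and 7.74 to 7.86 in wild types. Dusp6, a phosphatase for ERK, averaged 9.68 ± 0.12 (SD, n = 4) in heterozygotes and 9.31 ± 0.15 (SD, n = 4) in wild types, a difference of 0.37 (95% interval 0.06 to 0.67, adjusted p = 0.946, limma). It was the only gene of this list with genotypes that did not overlap, beside 2.66% of all probes, and its other probe was at 0.14. Socs3, a feedback inhibitor of cytokine signalling, differed by 0.37, Dusp8 by 0.30 and Rhob, a small GTPase, by 0.16, while Rnd3 differed by -0.48. Again 0 of the 27 were highest in wild type 2, beside 10.8% of all probes that passed. Their excess of wild type 2 over the median of the other mice ran from -0.68 (Gadd45a) to 0.69 (Errfi1). Errfi1 was highest in heterozygote 3.

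Upstream regulators were split, with 11 of 18 higher (50.1% of all probes), 7 lower, 0 called and a median difference of 0.05. Mapk3, which encodes ERK1, differed by 0.32, the kinase gene Rps6ka1 by 0.32 and Rps6ka3 by -0.29. Srf, the factor that binds the CArG box, differed by -0.20, and Mef2c by 0.18, with other Mef2c probes at -0.30 and 0.04. Partners and antagonists of AP-1 and MYC had 3 of 7 higher, 4 lower and 0 called, with a median of -0.07. Mxi1, a MYC antagonist, differed by -0.45, its relative Mxd4 by -0.23, the MYC partner Max by 0.25, the AP-1 repressor Jdp2 by 0.21 and Atf4 by -0.15 (other probe 0.04). Adjusted p-values of the genes named in these 4 lists ran from 0.946 to 0.971 (limma).

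The genes most like 3 members in pattern over the 8 mice were sought among 8145 other genes by Pearson r, as a description with no test. For Egr1 they were Nxn (0.944), Plod2 (0.921), Notch3 (0.915), Bmp4 (0.913) and Maged2 (0.903), all highest in wild type 2. Plod2 modifies collagen, Notch3 is a receptor of vascular smooth muscle and Bmp4 is a secreted growth factor. Without wild type 2 Nxn was at 0.972, Bmp4 at 0.884, Plod2 at 0.850, Maged2 at 0.665 and Notch3 at 0.311. For Dusp1 they were Rab21 (0.943), Pla2g12a (0.926), Ivd (0.921), P3h2 (0.908) and Serinc3 (0.907), at 0.841 to 0.977 without wild type 2. For Junb they were Tob2 (0.936), Tpcn1 (0.932), Tbc1d10a (0.931), E430018J23Rik (0.923) and Dync2li1 (0.913), at 0.905 to 0.944 without wild type 2. No other immediate early gene of the set was among these 15 genes.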

How the data were processed

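Heart RNA of 8 mice was measured on Illumina bead arrays, 1 per mouse. Per the labels' protocols, RNA was extracted with a column kit with DNase treatment, and biotinylated cRNA was made with an amplification kit. For scanner, software and normalization method: not given in the sources used here. One deposited table, not normalized, gives, per the file headers, an intensity and a detection p-value for each of 25697 probes. Intensities are linear and background-subtracted, since 23.0% to 27.2% per array lay below 0. The deposited p-values come in steps of 1 in 798, so a p-value of 0 means under 1 step. A second deposited table holds intensity values normalized between arrays by the authors and served as an alternative.

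Intensities were corrected by normexp from detection p-values (nec, offset 16), normalized by quantiles and logged to base 2. Differences of dim probes are shrunk by these steps, and a shift shared by every gene is lost to the quantile step. The filter (detection p under 0.01 on 4 or more arrays) left 10547 probes. The test was limma's moderated fit (lmFit, eBayes), two-sided, with Benjamini-Hochberg adjustment over those probes. Correlations used 1 probe a gene and every ordering of the mice. The fits ran in limma 3.58.1 under R 4.3.3, and the rest in Python 3.11.15 with scipy 1.17.1, numpy 2.4.6 and matplotlib 3.10.9.

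Symbols were matched to RefSeq names of GRCm38.p6: of 18120 symbols, 12036 were current, 5206 were synonyms of 1 gene and 878 were kept as in the file. Members and gene lists were chosen with earlier results of these data known. From each of 4 related lists, up to 5 genes with the smallest unadjusted p were named, and for 3 members with bright probes the 5 genes of highest correlation. Named pairs were the 5 with the largest and the 3 with the smallest r. Marker lists for cardiomyocyte, atrial, fibroblast, endothelial, smooth muscle, macrophage, neutrophil, lymphocyte, adipocyte, epicardial, lung and erythroid cells and a heat shock list were also summarised per mouse. Alternatives covered scaling, background, the authors' table, the filter, probe choice, weights, eBayes options, mouse number as a block, the threshold and each mouse left out. The removal of heterozygote 3 with wild type 2 was added after the data were seen. Chip and scan batches were not analysed here. The altered gene is not reported here.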

Additional observations from a re-analysis of the deposited data

Results flagged for a closer look

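In groups of 4 mice, values were singled out when the gap to the nearest mouse, as a share of the group's range, exceeded Dixon's 95% critical value of 0.829. Of 78 groups 8 were marked, and about 3.9 are expected if the rule's 1 in 20 holds. Among the members it marked 1 value, Dusp1 in heterozygote 2, at 10.61 against 10.18 to 10.25 in the other heterozygotes. The high values of wild type 2 for Fos, Jun, Egr1 and Atf3 did not reach it.

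Among related genes, Rnd3 stood apart in wild type 4 (6.24, others 5.50 to 5.59), Jdp2 in wild type 4 (4.67, others 5.38 to 5.41) and the kinase gene Rps6ka1 in heterozygote 3 (7.78, others 6.50 to 6.53). Among list means, epicardial and mesothelial markers (7.71, others 5.85 to 6.04) and heat shock genes (8.16, others 8.01 to 8.02) stood apart in wild type 2 among wild types. Heterozygote 3 had means of 7.67 and 8.37 for these lists. Of the 7 heat shock genes that passed the filter, 0 were highest in wild type 2. Neutrophil markers stood apart in wild type 1 (5.77, others 6.15 to 6.17) and erythroid markers in heterozygote 3 (7.08, others 8.87 to 8.97). All levels are normalized log2 intensities.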

How the results depend on the processing

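With limma, 0 probes, 0 member probes and 0 related probes were called in every alternative run, including an adjusted p under 0.10 and each mouse left out. Of the same-numbered mice, deviations from the group means correlated at -0.24, -0.276, -0.42 and 0.211 for numbers 1 to 4. Only heterozygote 4 was most like the wild type of its own number. So few pairs cannot settle whether the numbers pair the mice. The fit with the replicate block called 0 member probes. Junb and Dusp1 kept their sign in all alternatives (0.15 to 0.60 and -0.33 to -0.06), and the other 4 genes, none called, did not. Fos was -0.01 with an offset of 50 and -0.12 with array weights, and ran from -0.31 to 0.47 with 1 mouse left out. Jun was 0.08 with median scaling, which shifts the median of all probes by 0.14, 0.05 with array weights, and -0.17 to 0.09 with 1 mouse left out. With 1 mouse left out Egr1 ran from -0.33 to 0.13 and Atf3 from -0.005 to 0.38. The 2 pairs called for correlation became 1 with median scaling, 5 with cyclic loess, 1 with an offset of 50, 4 of 10 among genes detected on all 8 arrays, 1 with Spearman rho, 0 with genotype means removed, 0 without heterozygote 3 and wild type 2 together, and 0 to 2 with 1 mouse left out. Among genes detected on all 8 arrays the adjustment ran over 10 pairs rather than 15. With genotype means removed, mice were reordered within genotypes only, so that count is not on the same footing. What moved the other counts was not tested. The median r ran from 0.389 (without wild type 2) to 0.710 with 1 mouse left out and was 0.138 over 45 pairs with no detection filter, which adds genes not well above background.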

Other observations

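The remaining marker lists are given as values, and 50.1% of all probes that passed the filter were higher in heterozygotes. Macrophage markers were higher in heterozygotes for 10 of 10 genes that passed the filter, with a median difference of 0.37 and 0 called (2 at an unadjusted p under 0.05, limma), and summed to 7012 in heterozygote 3 against 1744 to 3345 in the other mice. Lymphocyte markers summed to 1093 in heterozygote 3 against 45.5 to 309 elsewhere, and adipocyte markers to 25045 against 976 to 11113. Fibroblast markers were higher for 7 of 7 with a median of 0.14 and 0 called, neutrophil markers lower for 3 of 3 with a median of -0.36, and erythroid markers higher for 4 of 4 with a median of 0.27.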
